A study of Mus musculus with 12 samples.

Results

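The metallothioneins described here are Mt1, Mt2 and Mt3, the 3 rows of the deposited count table that carry these names, out of 32517 entries with a usable gene name. Each of the 3 passed the filter on low counts and was among the 15134 genes tested. Both groups were male mice aged 12 weeks: WT mice that carried no Cre recombinase, and Cre-positive mice in which Nr3c1, the glucocorticoid receptor gene, was deleted conditionally in the retina (cKO). Animals of both genotypes spent 2 weeks in 12 h of light and 12 h of darkness and then entered constant darkness, and on day 2 of darkness whole eyes were dissected at circadian time (CT, counted in hours) 2, 6, 10, 14, 18 and 22. Each of the 12 libraries pooled equal RNA of 3 mice, with 1 library per genotype and time, so 6 libraries and 18 mice stood behind each genotype. All cKO mice carried Cre and no WT mouse did, so Cre itself and receptor loss cannot be told apart, and the promoter that drives Cre is not given in the labels. The labels disagree on the tissue: sample fields give ciliary body and nonpigmented ciliary epithelium, protocols give whole eyes, and the series title gives retina. Every one of the 114 genes in 12 marker lists of ocular tissues, blood, immune cells and glia had a count in at least 1 library, markers of rods, lens, cornea and ciliary epithelium among them.

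Metallothioneins are small cysteine-rich proteins that bind zinc and copper ions. Mt1 and Mt2 are made in many tissues and are induced by zinc through the metal-responsive transcription factor Mtf1, which binds metal response elements in their promoters. Glucocorticoids also induce Mt1 and Mt2 in mouse tissues, through the receptor that Nr3c1 encodes. Mt3 is expressed mainly in the nervous system and responds little to metals or to glucocorticoids.

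The 3 genes and the fourth family member, Mt4, lie side by side on the plus strand of chromosome 8 (GRCm38.p6, RefSeq), in the order Mt4 at 94137204 to 94139031, Mt3 at 94152607 to 94154148, Mt2 at 94172618 to 94173567 and Mt1 at 94178883 to 94180327. The authors' own genome build is not given in the sources used here. The promoter windows below are shown because metal response elements are the best known control sequences of this family. They are the RefSeq windows of GRCm38.p6, 250 bases before and 50 bases from the annotated start of each gene, plus strand. Capitals mark every match to the core of the metal response element, TGCACNC or TGCGCNC, on either strand.
Mt1, chr8:94178839-94179138: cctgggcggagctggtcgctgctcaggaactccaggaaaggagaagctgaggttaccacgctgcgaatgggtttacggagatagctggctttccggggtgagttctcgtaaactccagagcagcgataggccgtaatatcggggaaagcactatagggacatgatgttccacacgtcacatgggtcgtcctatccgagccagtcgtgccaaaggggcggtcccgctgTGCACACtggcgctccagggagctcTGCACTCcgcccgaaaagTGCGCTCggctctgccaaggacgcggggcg
Mt2, chr8:94172368-94172667: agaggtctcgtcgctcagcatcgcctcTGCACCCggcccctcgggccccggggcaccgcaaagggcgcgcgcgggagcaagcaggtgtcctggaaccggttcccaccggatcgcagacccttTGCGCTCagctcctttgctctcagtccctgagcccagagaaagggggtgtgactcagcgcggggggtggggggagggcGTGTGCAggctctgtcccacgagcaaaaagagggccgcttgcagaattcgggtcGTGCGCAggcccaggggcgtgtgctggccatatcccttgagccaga
Mt3, chr8:94152357-94152656: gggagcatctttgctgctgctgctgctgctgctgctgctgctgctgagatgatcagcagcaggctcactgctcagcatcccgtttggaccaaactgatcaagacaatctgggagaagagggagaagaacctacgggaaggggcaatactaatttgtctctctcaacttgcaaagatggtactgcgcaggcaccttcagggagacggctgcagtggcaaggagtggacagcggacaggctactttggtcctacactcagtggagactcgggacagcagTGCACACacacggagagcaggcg
The Mt2 window held 4 matches, at -223 to -217, -128 to -122, -50 to -44 and 5 to 11 from the RefSeq start, the last pair of them on the minus strand. The Mt1 window held 3, at -23 to -17, 3 to 9 and 21 to 27. The Mt3 window held 1, at 28 to 34. Among 32851 RefSeq windows of the same length, 25.7% held at least 1 match, 1.97% at least 3 and 0.518% at least 4. The Mt2 window also held 1 match to the antioxidant response element core TGACNNNGC, at -79 to -71, a motif found in 12.4% of windows. Neither the E-box CACGTG, in 7.15% of windows, nor AGAACA, a part of the glucocorticoid response element, in 19.0%, was found in these 3 windows. Full glucocorticoid response elements, and sequence outside these windows, were not searched. The windows depend on the annotated start: GENCODE M21 places the start of Mt2 46 bases downstream of the RefSeq start, and that of Mt3 at the same base. The RefSeq gene record of Mt1 begins upstream of the transcript start used for its window.

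By count, Mt1 was the most abundant of the 3 in every library, and levels per length follow further on. Levels are given as CPM, counts scaled to 1000000 per library over the tested genes, with TMM factors that correct for differences in composition. From CT2 to CT22, the 6 WT libraries held 70.2, 86.6, 63.2, 80.6, 89.0 and 78.9 CPM of Mt1. The 6 cKO libraries held 75.0, 69.4, 68.9, 68.6, 89.8 and 80.7 CPM. Both genotypes were highest at CT18, and their ranges overlapped over nearly their whole extent. The mean level of Mt1 was 78.1 ± 9.80 CPM in WT and 75.4 ± 8.49 CPM in cKO (SD, n = 6 each). Libraries held 10482736 to 10703737 counts in all, and between 675 and 942 of them were Mt1.

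Mt2 lay below Mt1 and had its lowest level at CT10 in both genotypes. From CT2 to CT22, WT libraries held 43.1, 47.9, 37.0, 43.1, 50.9 and 52.4 CPM of Mt2. The cKO libraries held 47.4, 40.5, 34.0, 44.5, 52.4 and 46.4 CPM. WT peaked at CT22 and cKO at CT18, and the ranges of the genotypes overlapped. The mean level was 45.8 ± 5.78 CPM in WT and 44.2 ± 6.32 CPM in cKO (SD, n = 6 each), from 356 to 572 counts per library.

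By count, Mt3 was the least abundant of the 3. From CT2 to CT22, WT libraries held 18.3, 20.7, 21.9, 26.9, 22.2 and 22.1 CPM of Mt3. The cKO libraries held 17.9, 17.3, 20.2, 19.8, 24.1 and 21.3 CPM. WT was highest at CT14 and cKO at CT18, and only the WT library of CT14 lay above every cKO library. The mean level was 22.0 ± 2.81 CPM in WT and 20.1 ± 2.45 CPM in cKO (SD, n = 6 each), from 182 to 280 counts per library. Mt4, which is known from stratified squamous epithelium, had 6 counts in all: 2 in WT at CT14 and 4 in cKO at CT22. In the other 10 libraries Mt4 had 0 counts, which allows a level of up to 0.289 CPM for counting error alone.

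**Figure D1:**
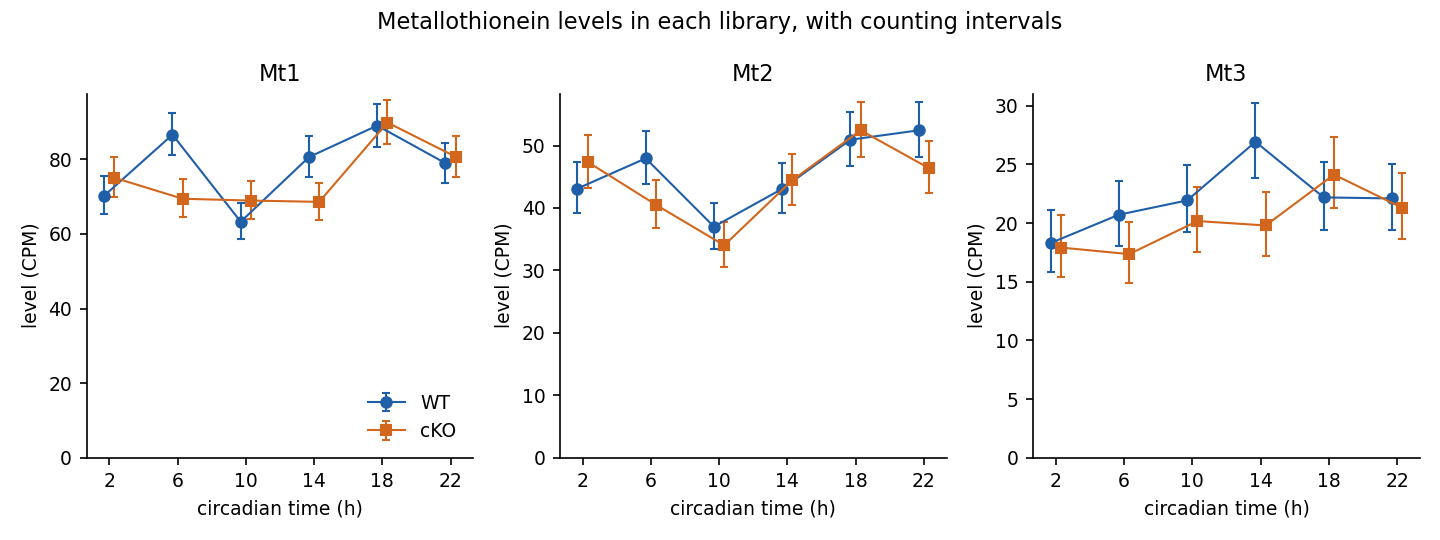
Level of Mt1, Mt2 and Mt3 in CPM (vertical axis, from 0) against circadian time in hours, 1 point per library, WT circles and cKO squares. Bars are exact 95% Poisson intervals for counting error only. Mt1 ran from 63.2 to 89.8 CPM, Mt2 from 34.0 to 52.4 CPM and Mt3 from 17.3 to 26.9 CPM, with overlapping genotypes in each panel.

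Per length, the order of the levels was Mt1, Mt2, Mt3 in both genotypes. With the GENCODE M21 reference transcripts of 549, 511 and 536 bases, the WT mean was 142 CPM per kilobase for Mt1, 89.5 for Mt2 and 41.1 for Mt3. The cKO means were 137, 86.5 and 37.5 CPM per kilobase. In CPM, the highest Mt2 library lay below the lowest Mt1 library, and the highest Mt3 library lay below the lowest Mt2 library. The count of Mt1 was 1.71 ± 0.13 times that of Mt2 in WT (range 1.51 to 1.87) and 1.72 ± 0.17 times in cKO (range 1.54 to 2.03; SD, n = 6 each). Mt3 made up 15.2 ± 2.14% of the summed counts of the 3 genes in WT and 14.4 ± 1.22% in cKO. The 3 genes are related in sequence, but the longest stretch that the annotated transcripts of any pair shared was 27 bases, between Mt1 and Mt3. How the authors counted reads that fit more than 1 gene is not given in the sources used here.

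Genotype was compared first for Nr3c1 itself, as the check of the deletion. Nr3c1 was lower in cKO at all 6 times. From CT2 to CT22 the WT libraries held 71.8, 65.9, 55.4, 76.0, 65.3 and 60.6 CPM and the cKO libraries 38.8, 49.3, 42.9, 49.3, 45.0 and 49.6 CPM, so the groups did not overlap. The log2 difference (cKO minus WT) was -0.52 ± 0.06 (SE; edgeR quasi-likelihood F test with time as a factor, Benjamini-Hochberg adjusted p = 0.0018). Nr3c1 transcript remained in every cKO library, at 54.1% to 81.9% of the WT level of the same time. In these bulk libraries, fewer cells of a type and less RNA per cell cannot be told apart.

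None of the 3 metallothioneins passed the genotype test, in which 21 of 15134 genes did (0.139%; 10 higher and 11 lower in cKO). The log2 difference (cKO minus WT) of Mt1 was -0.05 ± 0.06 (SE; 95% interval -0.17 to 0.07; edgeR adjusted p = 0.946). That of Mt2 was -0.05 ± 0.05 (SE; interval -0.17 to 0.06; adjusted p = 0.937). That of Mt3 was -0.13 ± 0.07 (SE; interval -0.28 to 0.02; adjusted p = 0.884, unadjusted p = 0.0909), with cKO lower in 5 of 6 pairs. Mt1 was lower in cKO in 2 of 6 pairs and Mt2 in 3 of 6. No member had an unadjusted p below 0.05 (891 of the 15134 genes did), and limma and DESeq2 also called 0 of 3. An exact two-sided permutation test over the 64 swaps of genotype within times gave p = 0.5625 for Mt1, 0.469 for Mt2 and 0.1875 for Mt3, where the smallest p possible was 0.03125. These intervals concern the level over a whole-eye library. They reach down to a log2 difference of -0.17 for Mt1 and Mt2 and -0.28 for Mt3, and larger decreases of that level lie outside them. The deletion was in the retina, and levels in its cells were not measured apart from the rest of the eye.

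At single times the genotypes lay apart in a few pairs, with no replicate within a time and so no test. Mt1 differed most at CT6, where cKO held 80.2% of the WT level (log2 ratio -0.32, 95% counting interval -0.46 to -0.18). The next largest gap of Mt1 was at CT14, at 85.1% (log2 ratio -0.23, interval -0.38 to -0.09). In the other 4 pairs Mt1 was slightly higher in cKO, by 0.01 to 0.12 on the log2 scale, and each counting interval held 0. Mt2 was lower in cKO at CT6 (log2 ratio -0.24, interval -0.43 to -0.05), at CT22 (-0.18) and at CT10 (-0.12). The counting interval of Mt2 excluded 0 at CT6 and, narrowly, at CT22. Mt3 had its widest gap at CT14, where cKO held 73.5% of the WT level (log2 ratio -0.44, interval -0.71 to -0.18). At CT18 Mt3 was higher in cKO (log2 ratio 0.12). Counting intervals do not include the spread between pools or between mice.

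**Figure D2:**
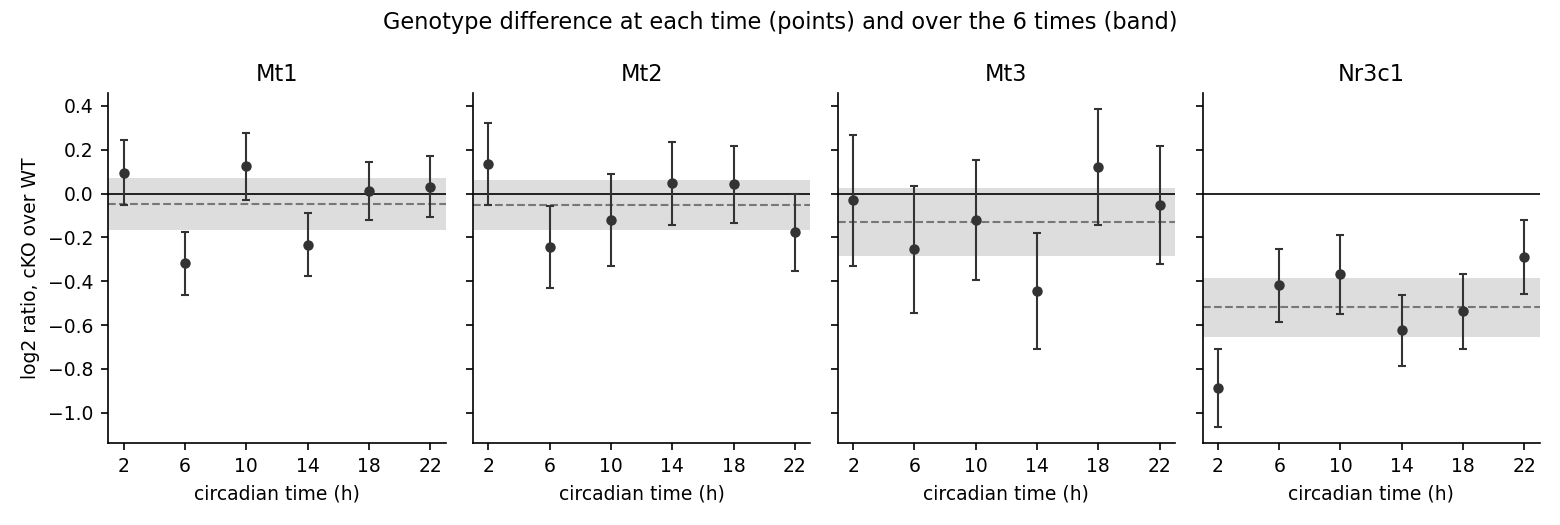
Log2 ratio of cKO over WT at each circadian time (points) for Mt1, Mt2, Mt3 and Nr3c1, with 95% intervals for counting error only. The dashed line and grey band are the difference over all 6 times and its 95% interval from the edgeR fit. The bands of the 3 metallothioneins include 0, with centres at -0.05, -0.05 and -0.13, and that of Nr3c1 lies below 0, with its centre at -0.52.

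Across the day, Mt2 varied with time and was the 1 member past the test of a 24 h rhythm shared by both genotypes. This test fits a cosine and a sine of 24 h common to WT and cKO, and 523 of 15134 genes passed it (3.46%). The amplitude of Mt2, the log2 distance from mean to peak, was 0.21 ± 0.04 (SE; edgeR adjusted p = 0.0369), with a fitted peak at CT 21.0 and a peak 1.33 times the trough. Mt3 missed the threshold (adjusted p = 0.0885), with an amplitude of 0.19 ± 0.05 and its fitted maximum at CT 16.1. Mt1 also missed it (adjusted p = 0.232), with an amplitude of 0.13 ± 0.05 and its maximum at CT 19.98. In this edgeR test all 3 members had an unadjusted p below 0.05 (Mt1 0.036, Mt2 0.000969, Mt3 0.00473), as did 2831 of the 15134 genes. The median amplitude over all genes tested was 0.08. The call for Mt2 lies near the threshold: it was lost without both libraries of CT10 (amplitude 0.13, adjusted p = 0.353), CT14 (adjusted p = 0.0620), CT18 (adjusted p = 0.153) or CT22 (adjusted p = 0.0696). It was also lost when 1 library was left out, for 7 of the 12: WT at CT10, CT18 and CT22, and cKO at CT2, CT6, CT10 and CT18.

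By single times, Mt2 was lowest at CT10, with a mean over both libraries of 35.5 CPM. Both CT10 libraries, at 37.0 and 34.0 CPM, lay below all the other 10. The next level up was CT14 at 43.8 CPM, followed by CT6 at 44.2, CT2 at 45.2, CT22 at 49.4 and CT18 at 51.7 CPM. From CT14 upward, neighbours in this order overlapped. A test of any difference between times, in which 292 genes passed (1.93%), also called Mt2 (edgeR adjusted p = 0.0429) but not Mt1 (0.185) or Mt3 (0.386). DESeq2 did not call Mt2 in this test (adjusted p = 0.13), and the call was lost without the libraries of CT10, CT18 or CT22.

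Mt1 had its highest mean at CT18, 89.4 CPM, where both libraries lay above all the other 10. The other times followed at 79.8 CPM for CT22, 78.0 for CT6, 74.6 for CT14, 72.6 for CT2 and 66.1 for CT10, and neighbours in this order overlapped, except CT2 and CT10. At CT6 the genotypes were farthest apart, and without both CT6 libraries the shared rhythm of Mt1 passed the test (amplitude 0.23, adjusted p = 0.0263), as it did without the WT library of CT6 alone (0.20, adjusted p = 0.0184). Mt3 was lowest at CT2, with a mean of 18.1 CPM, followed upward by CT6 at 19.0, CT10 at 21.0, CT22 at 21.7, CT18 at 23.2 and CT14 at 23.4 CPM. Neighbours in this order overlapped, except CT22 and CT18. The mean of CT14 joined the highest WT library of Mt3 with a cKO library of 19.8 CPM, and without that cKO library the shared rhythm passed (amplitude 0.22, adjusted p = 0.0492).

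**Figure D3:**
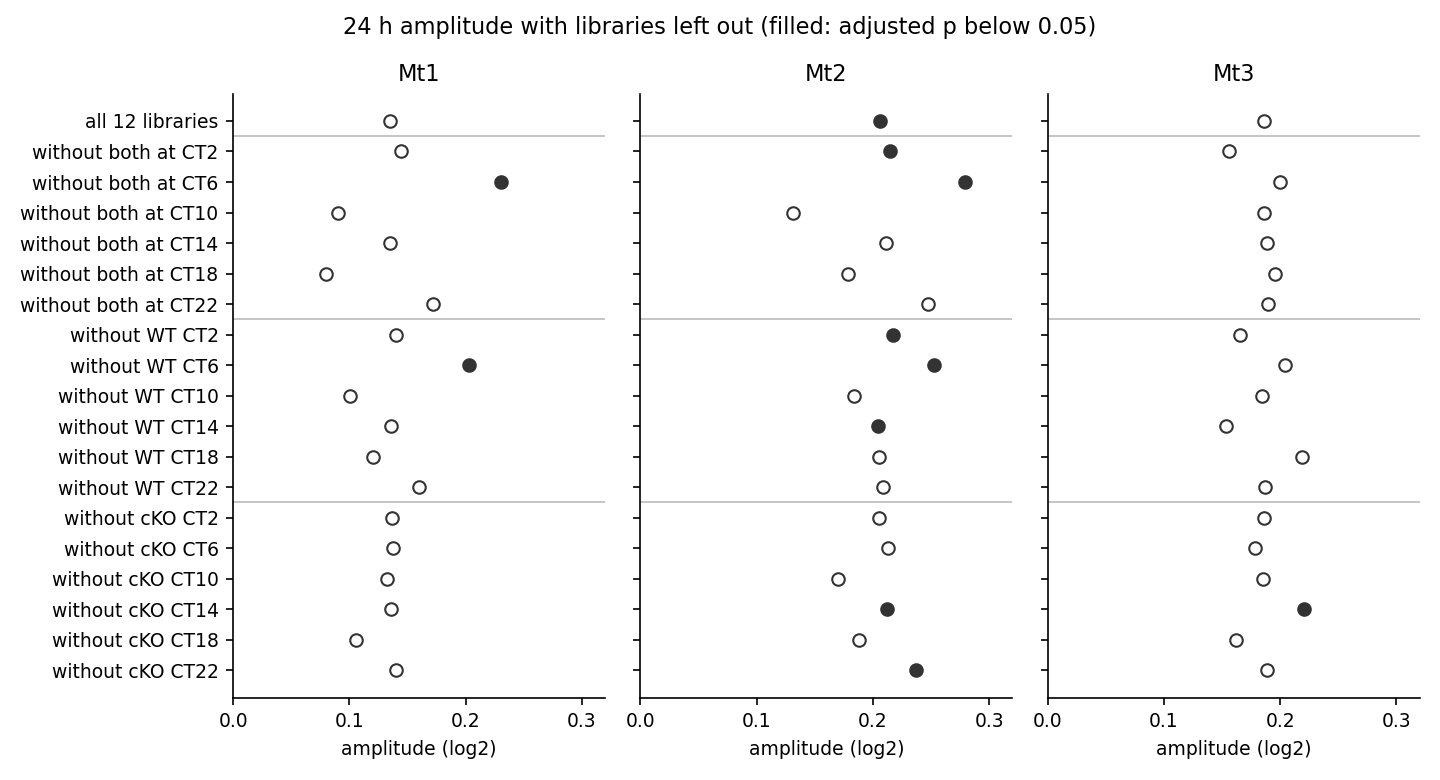
Amplitude of the shared 24 h rhythm (log2, horizontal axis) of Mt1, Mt2 and Mt3 with all 12 libraries, without both libraries of a time, and without each library. Filled points passed the test at an adjusted p below 0.05 and open points did not. Mt2 stayed between 0.13 and 0.28 and was called in part of these fits, and Mt1 and Mt3 were called in 2 and 1 of them.

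Within each genotype alone the rhythm of no member passed. In WT, the amplitudes were 0.10 for Mt1 (edgeR adjusted p = 0.766), 0.18 for Mt2 (0.421) and 0.20 for Mt3 (0.356), in a test that 55 genes passed (0.363%). In cKO they were 0.18 for Mt1 (adjusted p = 0.652), 0.24 for Mt2 (0.385) and 0.20 for Mt3 (0.548), where 23 genes passed (0.152%). Both limma and DESeq2 called 0 of 3 in each genotype, though DESeq2 gave no adjusted p for Mt3 in cKO. By edgeR, 2 of the 3 had an unadjusted p below 0.05 in each genotype (in WT Mt2 at 0.0481 and Mt3 at 0.0265, in cKO Mt2 at 0.0111 and Mt3 at 0.0353). Over all 15134 genes, 1767 had such a p in WT and 1273 in cKO. The difference in rhythm between genotypes was tested directly, and 2 of 15134 genes passed (0.0132%). No metallothionein did (adjusted p = 0.99965 each), none had an unadjusted p below 0.05 there, and limma and DESeq2 again called 0 of 3. The fitted peaks of Mt2 lay at CT 21.5 in WT and CT 20.6 in cKO, and those of Mt3 at CT 14.6 and CT 17.7.

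Mt1 and Mt2 varied together across libraries. Over the 12 libraries their log2 levels had a Pearson r of 0.79 (permutation p = 0.00199, adjusted over the 3 pairs of members 0.00597) and a Spearman rho of 0.78 (permutation p = 0.00398, adjusted 0.0119). Without the 2 libraries farthest from the median of Mt1, WT at CT10 and cKO at CT18, r was 0.68. The relation stood at r = 0.82 within WT and 0.77 within cKO (n = 6 each). Mt1 with Mt3 gave r = 0.50 and rho = 0.55 (permutation p = 0.0975 and 0.0653, adjusted 0.146 and 0.0979), and without the same 2 libraries r = 0.59. Mt2 with Mt3 gave r = 0.24 and rho = 0.38 (permutation p = 0.448 and 0.228, adjusted 0.448 and 0.228), and 0.41 without both libraries of CT10. These pairs share the libraries, their depth and their scaling. The permutations shuffled all 12 libraries without regard to time or genotype, so a time course common to both genes also lowers these p-values.

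**Figure D4:**
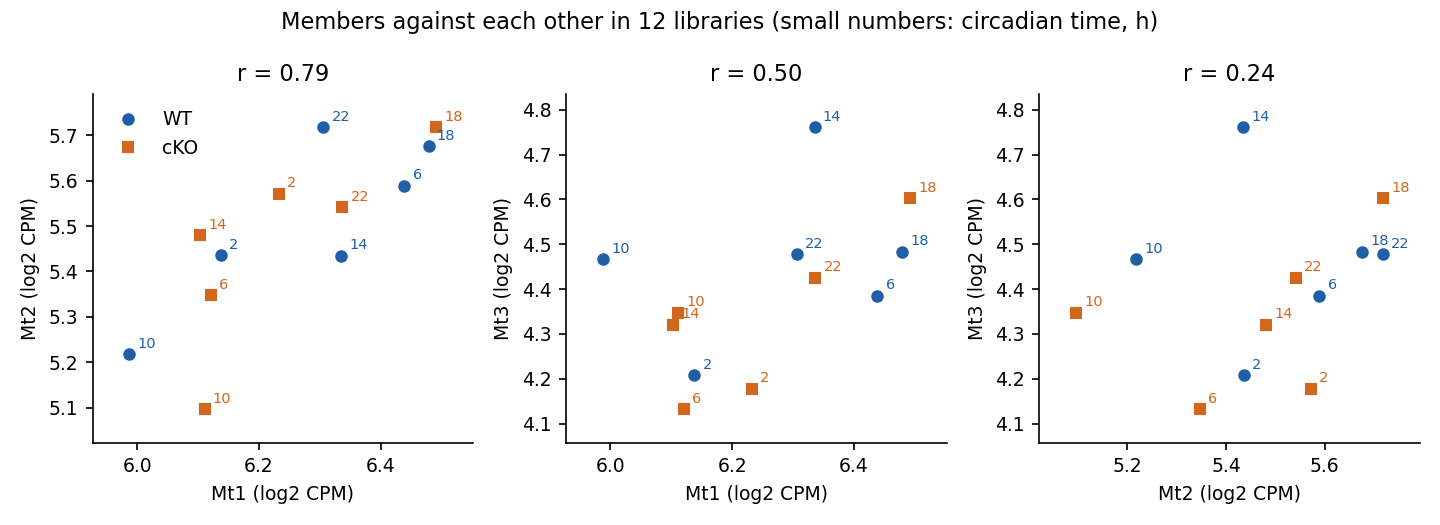
Log2 CPM of each pair of metallothioneins in the 12 libraries, WT circles and cKO squares, with circadian time in hours beside each point. Mt1 and Mt2 followed each other (r = 0.79), and Mt2 and Mt3 showed no such relation (r = 0.24). The lowest library was WT at CT10 for Mt1 and cKO at CT10 for Mt2, and the highest of each was cKO at CT18. Mt1 was also low in cKO at CT14 (68.6 CPM, beside 68.9 CPM in cKO at CT10). In WT at CT6, Mt1 (86.6 CPM) lay above its CT22 libraries (78.9 CPM in WT and 80.7 CPM in cKO).

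The genes whose pattern was most like that of each member were ranked by Pearson r over the 12 libraries among 14263 genes, as a description. For Mt2 the closest were Anxa1 (r = 0.95), which encodes annexin A1, Serpinb10 (0.93), Chmp5 (0.89), Itgb8 (0.88) and Rab1a (0.88). Serpinb10 averaged 1.20 CPM over the libraries, so its r rests on few counts. Anxa1 was fitted with a peak at CT 21.1, beside CT 21.0 for Mt2, and did not pass the shared rhythm test (adjusted p = 0.0954). For Mt1 the closest were St3gal5 (r = 0.86), Ints5 (0.85), Sdc4 (0.85) and Tes (0.83), and Mt2 ranked 20th. For Mt3 they were Pa2g4 (r = 0.92), Tomm7 (0.90), Ptpn12 (0.90), Pank2 (0.89) and Rhbdl3 (0.89). Mt1 ranked 70th for Mt2.

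The regulators of the family were compared next. Mtf1, the zinc-sensing factor, averaged 33.2 CPM over WT libraries and 33.7 CPM over cKO libraries (log2 difference 0.03 ± 0.05 SE, edgeR adjusted p = 0.97). Of the 7 regulators tested, 1 passed the genotype test, Nr3c1. Nfe2l2, the activator of antioxidant genes, averaged 47.7 CPM over WT libraries and 43.3 CPM over cKO libraries, short of the threshold (log2 difference -0.14 ± 0.05 SE, adjusted p = 0.705). Stat3, which carries cytokine signals, passed the shared rhythm test (amplitude 0.12 ± 0.03 SE, peak CT 19.4, adjusted p = 0.0486), though DESeq2 called none of the 7 there. The median amplitude of the 7 was 0.05, beside 0.08 for all genes.

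Genes of zinc and copper handling did not pass in either direction. Slc30a1, the zinc exporter that Mtf1 also controls, averaged 35.2 CPM over WT libraries and 34.7 CPM over cKO libraries (log2 difference -0.02 ± 0.06 SE, adjusted p = 0.983). Its shared rhythm, with an amplitude of 0.14 and a maximum at CT 4.5, missed the threshold (adjusted p = 0.134). Of 13 zinc importers tested, 8 had a higher and 5 a lower mean under cKO (median log2 difference 0.01), and of 9 exporters 3 had a higher and 6 a lower one (median -0.02). Over all genes tested the median difference was -0.000162. The smallest genotype p of these lists belonged to the importer Slc39a3 (log2 difference 0.11 ± 0.04 SE, adjusted p = 0.783) and the exporter Slc30a3 (-0.37 ± 0.20, adjusted p = 0.881). Of 9 copper genes, 3 were higher and 6 lower, and the copper pump Atp7b had the smallest genotype p (means of 16.4 CPM for WT and 18.8 CPM for cKO, log2 difference 0.19 ± 0.07 SE, adjusted p = 0.673). Of 8 oxidative stress genes, 3 were higher and 5 lower in cKO. In edgeR's genotype, shared rhythm, WT, cKO, rhythm difference and any-time tests, 0 genes of these 4 lists were called. At an unadjusted p below 0.05, the genotype test held 1 zinc importer, 0 exporters, 1 copper gene and 1 oxidative stress gene, and the shared rhythm test held 3, 1, 2 and 1. Over all 15134 genes tested, 891 had such a p in the genotype test and 2831 in the shared rhythm test. Neither limma nor DESeq2 called a gene of these lists in any of the 6 tests.

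Other genes known to be induced by glucocorticoids offer a comparison for Mt1 and Mt2. The fitted difference was below 0 for 15 of 23 and above 0 for 8 (median -0.08 on the log2 scale). Over all 15134 genes tested it was below 0 for 7577. In edgeR's genotype test, 6 of the 23 had an unadjusted p below 0.05, beside 891 of the 15134 genes. At the adjusted threshold, where 0.139% of all genes passed, 1 of the 23 did. That was Fam107a, whose mean was 40.8 CPM for WT and 32.8 CPM for cKO (log2 difference -0.31 ± 0.05 SE, edgeR adjusted p = 0.0335); limma called 1 of the 23 and DESeq2 called 0. Tsc22d3, which encodes the anti-inflammatory protein GILZ, stood at 52.4 and 48.4 CPM (log2 difference -0.11 ± 0.05 SE, adjusted p = 0.837), and Fkbp5, a receptor co-chaperone, at 30.4 and 28.5 CPM (-0.08 ± 0.09, adjusted p = 0.943). The median amplitude of the shared rhythm was 0.18 over the list, beside 0.08 for all genes. The shared rhythm test, which 3.46% of all genes passed, called 5 of the 23. Their peaks lay at CT 13.3 for the clock gene Per1, CT 15.3 for Tsc22d3, CT 16.0 for the stress gene Ddit4, CT 17.1 for the kinase Sgk1 and CT 2.9 for the cell cycle inhibitor Cdkn1a, beside CT 21.0 for Mt2. The amplitude of Per1 was 0.31 ± 0.04 (SE, adjusted p = 0.00124), that of Tsc22d3 0.28 ± 0.04 (adjusted p = 0.00124) and that of Sgk1 0.16 ± 0.03 (adjusted p = 0.00635). Within WT, edgeR called 4 of the 23 (limma 3, DESeq2 5), beside 0.363% of all genes. Within cKO each tool called 0. Fkbp5 was among the 4 (edgeR, WT amplitude 0.40, adjusted p = 0.0422), with a cKO amplitude of 0.09 (adjusted p = 0.883). The direct edgeR test of a rhythm difference called 0 of the 23, beside 0.0132% of all genes (Fkbp5 adjusted p = 0.99965, unadjusted p = 0.00524). At an unadjusted p below 0.05 it held 3 of the 23, beside 390 of the 15134 genes.

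**Figure D5:**
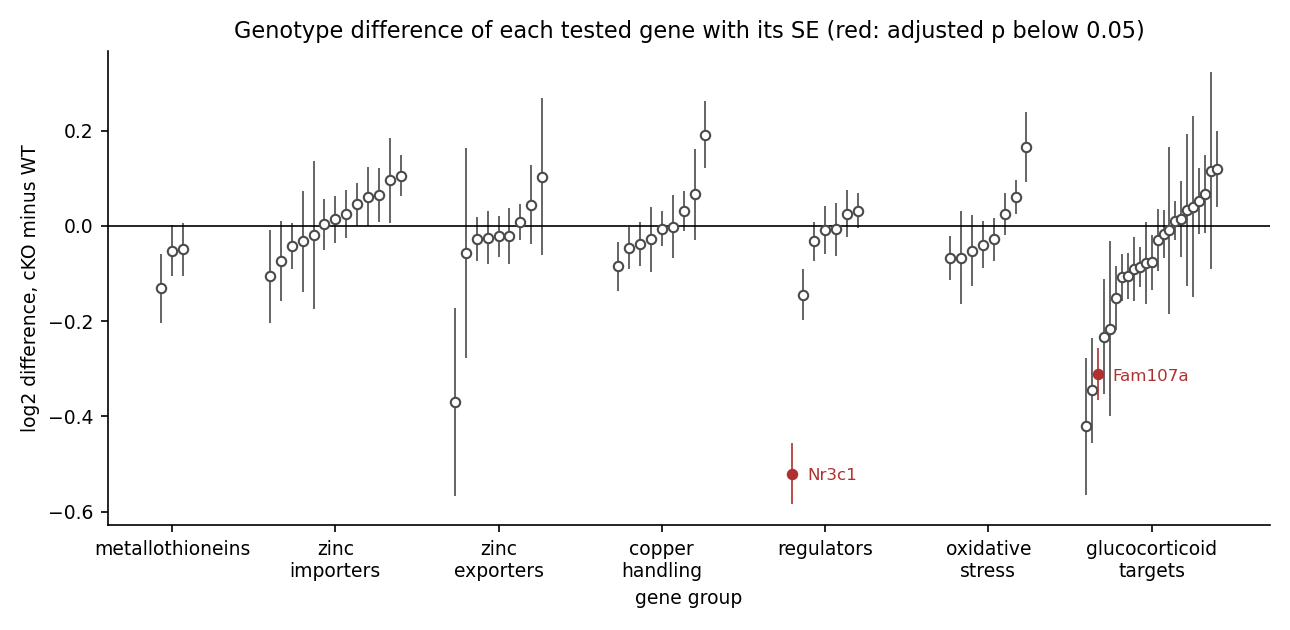
Log2 difference (cKO minus WT) of every tested gene, with its SE, for the metallothioneins and 6 gene groups, ordered by value within a group. Red points passed the genotype test at an edgeR adjusted p below 0.05. Nr3c1 at -0.52 and Fam107a at -0.31 are the red points, and the 3 metallothioneins lie at -0.13, -0.05 and -0.05.

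Markers of other cell types also varied between libraries. The 10 Müller glia markers, a cell type that expresses metallothioneins, had a summed level of 5014 to 5615 CPM in WT and 4777 to 5267 CPM in cKO, and 0 of 10 passed the genotype test (2 at an unadjusted p below 0.05, 0 by limma and DESeq2). The 10 stroma and sclera markers were all lower in cKO by their fitted difference, and summed to 854 to 1646 CPM in WT and 744 to 1366 CPM in cKO, highest in the WT library of CT18 and lowest in the cKO library of CT10. The 14 lens markers were all higher in cKO by their fitted difference, with sums of 37103 to 55882 CPM in WT and 47925 to 64362 CPM in cKO. None of the 24 stroma and lens markers passed the edgeR genotype test (3 and 12 at an unadjusted p below 0.05; limma called 0, DESeq2 called 2 lens genes). In the test of any difference between times, which also called Mt2, edgeR called 6 of 14 lens markers and 6 of 9 extraocular muscle markers tested, beside 1.93% of all genes. DESeq2 called 10 and 6 of them. Both lens sums were lowest at CT22 and highest at CT2, and both muscle sums were highest at CT22 (579 to 791 CPM in WT, 580 to 816 CPM in cKO). Of the other lists, edgeR called 2 of 11 rod markers there, 1 each of the Müller glia, reactive glia, ciliary epithelium, cornea and immune lists, and 0 of the astrocyte, pigment epithelium, stroma and red blood cell lists (0, 5, 4 and 0 at an unadjusted p below 0.05; limma and DESeq2 called 0). The shared rhythm test, which 3.46% of all genes passed, called 2 Müller glia and 2 rod markers. It also called 1 each of the reactive glia, ciliary epithelium and cornea lists, and 0 genes of the other lists. In those, an unadjusted p below 0.05 was held by 5 immune, 4 pigment epithelium, 3 stroma and 1 lens markers, limma called 0, and DESeq2 called 1 pigment epithelium and 1 immune gene. Over all 15134 genes tested, 891 had such a p in the genotype test, 2831 in the shared rhythm test and 2058 in the any-time test.

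Reactive glia markers summed to 314 to 385 CPM in WT and 304 to 378 CPM in cKO, lowest at CT10 in both genotypes. Cornea and conjunctiva markers summed to 7032 to 11196 CPM in WT and 7276 to 10690 CPM in cKO. Among them the keratin Krt13 passed the genotype test (292 CPM in WT and 378 CPM in cKO, log2 difference 0.37 ± 0.06 SE, edgeR adjusted p = 0.0228). Immune cell markers summed to 166 to 302 CPM in WT and 194 to 288 CPM in cKO, and red blood cell markers to 173 to 507 CPM and 116 to 242 CPM. The part of these differences in the levels of Mt1, Mt2 and Mt3 was not tested.

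Around the cluster, the neighbouring genes did not pass either. RefSeq annotates 34 genes with a start within 500 kb of that of Mt1 on chromosome 8, of which 19 had an entry in the table and 13 besides the members were tested. The fitted difference was below 0 for 7 of the 13 and above 0 for 6 (median -0.02 on the log2 scale). By edgeR 0 of the 13 passed the genotype, shared rhythm or any-time test (0, 3 and 1 at an unadjusted p below 0.05), and limma and DESeq2 called 0. Of all 15134 genes tested, 891, 2831 and 2058 had such a p in these tests.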

How the data were processed

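RNA of pooled whole eyes was sequenced in 12 libraries. The authors deposited read counts per gene, unscaled whole numbers in what they call a raw data sheet. For the aligner, counting tool, build, annotation and strand setting, the answer is not given in the sources used here. Of 32544 entries, 27 whose names had become dates (0.154% to 0.167% of counts) were left out.

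Groups and times came from the sample titles. Counts were filtered (edgeR 4.0.16 filterByExpr by genotype, minimum count 10, minimum total 15), scaled by TMM and tested by edgeR's quasi-likelihood F test under R 4.3.3, with p-values adjusted by Benjamini-Hochberg over 15134 genes (threshold 0.05). Log2 CPM used a prior count of 2. Models were genotype plus a time factor (5 residual degrees of freedom), a shared 24 h cosine and sine (8), separate terms per genotype (6) and their difference (6). Time pairs the libraries by design. The SE of an estimate is that implied by its F statistic. In the fit of genotype plus a time factor, the common coefficient of variation was 6.06%. With 1 pooled library per genotype and time, the spread between like pools or between mice was not measured. The p-values rest on what each model left unexplained. That can include a genotype difference that changes with time and, in the cosine models, departures from a cosine. Correlations used 100000 permutations. Intervals and limits for single libraries (exact 95% Poisson and binomial, and 3 counts for a count of 0) cover counting error only.

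Members, gene lists and tests were chosen with earlier results of these data known. Named genes were the members, Nr3c1, Mt4, list genes past a test, the smallest genotype p of the metal, regulator and glucocorticoid lists, 6 genes set by name, and the 5 closest genes by r (1 of those for Mt1 is not reported here); of the marker lists, calls in the shared rhythm and any-time tests are given for each, and sums for 8 of the 12, chosen after their values were seen. Alternatives were DESeq2 1.42.0 size factors and test, limma 3.58.1, no filter, no time term, a cosine for time, a 12 h term, 1 genotype alone, a prior count of 0.5 and leaving out each time. Leaving out each library was added after seeing the data. Promoters came from RefSeq (GRCm38.p6), where all 3 members matched, and lengths from GENCODE M21.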

Additional observations from a re-analysis of the deposited data

How the results depend on the processing

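The genotype differences of Mt2 and Mt3 kept their direction and stayed short of the threshold in all 12 alternatives each. That of Mt1 ran from -0.0819 to 0.00470 when each time was left out, changing sign without CT6, as did its mean paired difference (-0.0823 to 0.00604). With 1 time or library left out, the shared amplitude ran from 0.0797 to 0.23 for Mt1 (called without CT6 or WT CT6), 0.131 to 0.279 for Mt2 and 0.154 to 0.221 for Mt3 (called without cKO CT14). Mt2 was called in 12 of 23 alternatives. Its range between times was 0.24 to 0.545 with times left out and 0.542 under DESeq2, where its call was lost. No call of a member in the WT, cKO or rhythm difference tests appeared under any alternative run. DESeq2 gave no adjusted p for Mt3 in the cKO test.

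Counts of genes called moved more. Without the filter they were 51 for genotype, 108 for the WT rhythm, 52 for the cKO rhythm, 7 for the rhythm difference and 553 for any time. DESeq2 called 104, 69 and 5 for the WT, cKO and difference tests. Without the time term (no replicate block) 3 genes were called for genotype. WT libraries alone gave 23 and cKO libraries alone 103. With a time or library left out, counts ran from 5 (CT2; 6 without CT6, 12 without CT10) to 26 (CT18) for genotype, 217 (CT10 or CT18; 332 without CT6, 342 without CT22, 338 without cKO CT10) to 475 for the shared rhythm, 13 (CT22; 16 without CT6, 28 without CT10) to 86 (CT2) for WT, 3 (CT10; 11 without CT6, 12 without CT18 or CT22) to 32 for cKO, 0 (CT6 or CT10; 411 and 392 genes at an unadjusted p below 0.05) to 4 (CT14) for the difference and 134 (CT10; 193 without CT6) to 318 for any time. The causes were not tested. Mt3, with at most 280 counts per library, had the widest intervals at single times.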
